A study of Mus musculus with 12 samples.

Results

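The genes described are the proteasome subunits and the proteins that assemble, open or restrain the proteasome, taken from the deposited gene table as every row whose name is Psma to Psmg followed by a number, with names containing "-ps" (annotated pseudogenes) left out. The rule found 50 of the 28999 genes in the table, and 49 of them passed the filter on low counts, against 16319 genes in all. By role they were 7 genes of the alpha ring, 7 of the beta ring, 3 immunoproteasome subunits, 6 ATPases and 11 other subunits of the cap, 7 assembly chaperones, 5 activators, 1 inhibitor, the testis alpha subunit Psma8, the thymic beta subunit Psmb11 and Psmc3ip. Psmc3ip bears the name of a cap subunit but encodes a factor of meiotic recombination that is known as HOP2, so the rule took in 1 gene that is no proteasome component. Psme2b is an intronless copy of Psme2 and is listed with the activators only for its name.

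The libraries came from mouse bone marrow cells labelled LT-HSC, for long-term haematopoietic stem cell, the type that can rebuild all blood lineages. There were 3 RNA-seq libraries in each of 4 groups: Trim47-/- after 5-FU, wild type after 5-FU, Trim47-/- untreated and wild type untreated. The TRIM47 protein belongs to the TRIM family of ubiquitin ligases, enzymes that attach ubiquitin to other proteins. 5-FU (5-fluorouracil) kills cycling cells, and the labels give 10 days of treatment. The labels state neither strain, age nor sex, nor the part of Trim47 that was deleted, nor whether animals were pooled. Because they name no separate animals, the p-values below measure the spread between libraries, which may be technical.

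Total counts ran from 13919649 to 13953510 in Trim47-/- 5-FU libraries, from 15111811 to 15151589 in wild type 5-FU libraries, from 20661120 to 20703198 in Trim47-/- untreated libraries and from 14828152 to 14885673 in wild type untreated libraries. Trim47 itself had 11.3 ± 1.09 CPM in Trim47-/- and 35.4 ± 2.503 CPM in wild type after 5-FU, and 19.7 ± 3.63 CPM in Trim47-/- and 24.4 ± 0.53 CPM in wild type without the drug (CPM being counts scaled to a common library size, mean ± SD, n = 3). It passed the test after 5-FU (log2 change -1.64, adjusted p = 5.5e-07) and not without the drug (-0.31, adjusted p = 0.0632), so groups are called as they were labelled. All 9 LT-HSC markers on the list used had counts in every group, and Slamf1 (CD150) was at 5.67 CPM in Trim47-/- and 16.3 CPM in wild type after 5-FU, and at 2.86 CPM in Trim47-/- and 1.89 CPM in wild type without the drug. It fell with genotype after 5-FU (log2 change -1.52) and rose with 5-FU in wild type (3.11, the largest rise among the 9 markers). Of the 9 markers, 2 rose and 2 fell with 5-FU in wild type (median log2 change -0.02), against 25.2% and 25.4% of all genes. With genotype after 5-FU none rose and 8 fell, against 27.2% and 27.6% of all genes.

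The proteasome is the large protease that destroys proteins tagged with ubiquitin. Its barrel-shaped core is built from alpha and beta rings, and the beta subunits PSMB5, PSMB6 and PSMB7 carry the cutting sites. A cap of ATPases and other subunits binds ubiquitin chains, unfolds the substrate and feeds it into the core. Blood cells and cells exposed to interferon are known to carry a variant core, the immunoproteasome, in which PSMB8, PSMB9 and PSMB10 take the places of PSMB5, PSMB6 and PSMB7. The activators PSME1 and PSME2 form the PA28 ring that opens the core without ATP, PSME3 forms a nuclear ring of its own, PSME4 is PA200, and PSMF1 is PI31, which was first described as an inhibitor. In mammals the transcription factor NRF1 (Nfe2l1) is known to raise core and cap genes together when proteasome activity falls short, and stem cells of the blood are known for low protein synthesis and close control of protein quality.

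RefSeq promoter windows of the GRCm38.p6 build, 250 bases before to 50 after each gene's start, were found for 42 of the 50 genes. The ones printed belong to Psmb3 and Psmb5, a structural and a catalytic beta subunit with large changes below, to Psme1 and Psme2, the partners of 1 activator ring, and to Psmb9, the catalytic subunit that passed in no comparison. Capitals mark matches, on either strand, to TGANNNNGC (the core of the antioxidant response element that NRF1 and its relatives can bind), GAAA, any pair of bases and GAAA again (the core of the interferon-stimulated response element), TTCNNNGAA (the gamma-activated sequence) and CCAAT (the CCAAT box). The windows are Psmb3 at chr11:97703184-97703483 on the + strand, Psmb5 at chr14:54617946-54618245 on the - strand, Psme1 at chr14:55578244-55578543 on the + strand, Psme2 at chr14:55591052-55591351 on the - strand and Psmb9 at chr17:34187281-34187580 on the - strand. The RefSeq start of Psmb9 lies 434 bases inside the start of its principal GENCODE transcript, and that of Psme1 lies 134 bases from it. Of the windows not printed, those of Psmd13, Psmb8 and Psme2b rest on starts 426, 405 and 220 bases from the principal one. The counts below include these windows, with Psmb8 and Psmd13 among the TGANNNNGC matches.
Psmb3: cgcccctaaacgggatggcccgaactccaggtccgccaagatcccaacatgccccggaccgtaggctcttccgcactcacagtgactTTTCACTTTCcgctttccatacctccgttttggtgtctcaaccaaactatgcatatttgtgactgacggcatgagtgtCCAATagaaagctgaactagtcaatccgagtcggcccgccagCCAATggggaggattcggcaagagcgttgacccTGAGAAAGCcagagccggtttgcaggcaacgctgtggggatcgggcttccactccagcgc
Psmb5: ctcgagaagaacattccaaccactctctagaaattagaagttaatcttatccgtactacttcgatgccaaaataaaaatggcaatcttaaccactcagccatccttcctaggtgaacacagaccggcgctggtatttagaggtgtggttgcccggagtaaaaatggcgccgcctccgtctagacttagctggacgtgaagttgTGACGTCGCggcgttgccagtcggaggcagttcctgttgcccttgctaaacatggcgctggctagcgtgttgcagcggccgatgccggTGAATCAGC
Psme1: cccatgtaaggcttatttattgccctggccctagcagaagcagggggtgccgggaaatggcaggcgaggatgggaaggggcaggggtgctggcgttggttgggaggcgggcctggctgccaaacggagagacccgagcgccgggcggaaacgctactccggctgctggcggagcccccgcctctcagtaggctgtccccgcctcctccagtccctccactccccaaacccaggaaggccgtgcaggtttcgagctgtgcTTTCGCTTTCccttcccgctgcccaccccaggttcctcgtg
Psme2: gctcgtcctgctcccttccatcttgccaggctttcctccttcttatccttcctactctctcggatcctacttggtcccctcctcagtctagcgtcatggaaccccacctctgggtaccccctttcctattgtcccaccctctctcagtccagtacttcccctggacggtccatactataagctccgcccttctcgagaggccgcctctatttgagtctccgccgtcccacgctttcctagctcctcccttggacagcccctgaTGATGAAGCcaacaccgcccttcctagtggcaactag
Psmb9: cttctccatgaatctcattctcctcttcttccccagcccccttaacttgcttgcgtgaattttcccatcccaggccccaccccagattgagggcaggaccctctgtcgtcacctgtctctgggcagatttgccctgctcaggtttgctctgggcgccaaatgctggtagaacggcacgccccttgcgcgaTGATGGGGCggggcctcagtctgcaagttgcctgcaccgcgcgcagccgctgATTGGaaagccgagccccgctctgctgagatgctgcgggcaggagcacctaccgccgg
The printed windows hold TGANNNNGC in Psmb3, Psmb5, Psme2 and Psmb9, the interferon-type core in Psmb3 and Psme1, and CCAAT in Psmb3 and Psmb9. TGANNNNGC was in 23 of the 42 windows (54.8%), against 41.4% of 27025 promoter windows of the same length. The interferon-type core was in 5 of 42 (11.9%, against 3.49%), TTCNNNGAA in 3 (7.14%, against 8.47%) and CCAAT in 14 (33.3%, against 37.9%). These are counts of letters in windows, and no binding was measured.

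The summed level of the core and cap subunits was highest in Trim47-/- libraries after 5-FU. The 31 core and cap subunits other than the immunoproteasome summed to 3856, 3838 and 3812 CPM in the Trim47-/- 5-FU libraries, 3013, 3020 and 3022 CPM in the wild type 5-FU libraries, 2791, 2783 and 2757 CPM in the Trim47-/- untreated libraries and 2983, 2984 and 2907 CPM in the wild type untreated libraries. The lowest Trim47-/- 5-FU library was thus above every other library, and the 3 Trim47-/- untreated libraries were the lowest of all. The sum was 1.27 times as high in Trim47-/- as in wild type after 5-FU, and 0.939 times as high without the drug. Between 5-FU and untreated libraries the ratio was 1.38 in Trim47-/- and 1.02 in wild type. In bulk RNA, more or fewer cells of a type and more or less RNA per cell cannot be told apart.

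**Figure D1:**
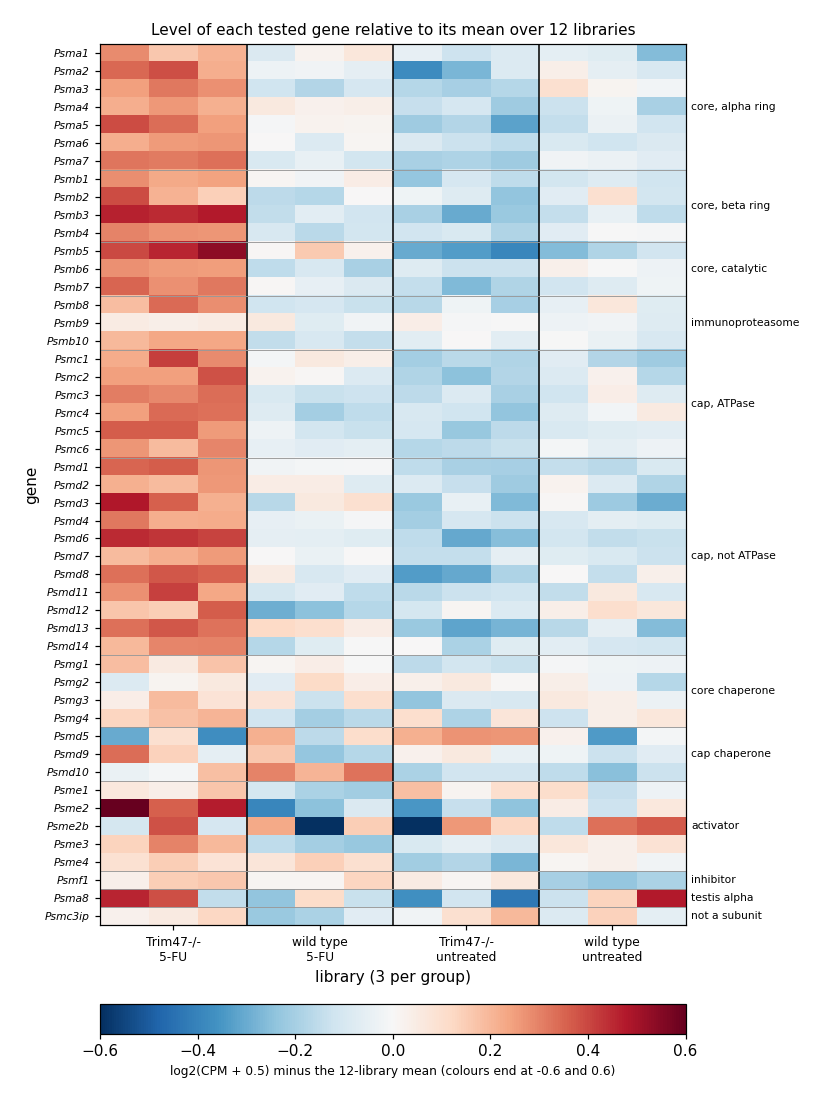
Each row is 1 of the 49 tested genes, ordered by role, and each column 1 of 12 libraries, 3 per group; the colour gives log2(CPM + 0.5) minus the gene's mean over the 12 libraries, red higher and blue lower. Nearly all core and cap rows are red in the Trim47-/- 5-FU columns, while Psmb9 stays pale across all 12 columns.

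After 5-FU, 38 of the 49 tested genes rose in Trim47-/- against wild type and 1, the cap chaperone Psmd10, fell (edgeR quasi-likelihood test, adjusted p under 0.05). Over all genes tested, 27.2% passed as higher and 27.6% as lower in the same comparison. All 31 core and cap subunits rose, with log2 changes from 0.19 (Psma4) to 0.57 (Psmb3) and a median of 0.36, where the median of all genes was -0.0004. In each of the 31, all 3 Trim47-/- libraries lay above all 3 wild type libraries, which was so of 30.5% of all genes tested (30.7% had all 3 below). No core or cap subunit and 1 of the 49 genes, Psme2, changed by at least 1.5-fold, against 20.2% of all genes. With library totals alone as the scaling, 30 of the 31 rose and their median was 0.28, where that of all genes was -0.077.

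Beside this, blood-cell markers moved between the same groups. All 7 monocyte markers rose (summed level 1035 to 1070 CPM in Trim47-/- and 597 to 615 CPM in wild type after 5-FU), as did all 7 neutrophil markers (5098 to 5505 CPM against 3168 to 3257 CPM), while 8 of 9 LT-HSC markers fell (637 to 711 CPM against 1033 to 1190 CPM). Of the dendritic-cell list 1 of 7 fell, of the B-cell list 4 of 5, of the T and NK list 1 of 3, of the erythroid list 2 of 5, of the megakaryocyte list 5 of 5 and of the endothelial and stromal list 2 of 5, and none of these rose. Over all genes tested, 27.2% passed as higher and 27.6% as lower, so 1 or 2 lower genes in lists this short are not far from that share. The B-cell marker Ms4a1 was at 0 in the Trim47-/- 5-FU libraries, and the T and NK marker Gzma at 0 in the wild type 5-FU libraries. The part of these cells in the proteasome changes was not tested.

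Within the alpha ring, whose gate controls entry to the core, all 7 genes rose in Trim47-/- after 5-FU. Psma7 had 163, 162 and 164 CPM in Trim47-/- against 122, 126 and 121 CPM in wild type (log2 change 0.40, SE 0.02, adjusted p = 1.12e-07), so the groups were far apart for the spread within them. Psma3 was the most changed of the ring with a log2 change of 0.41, and Psma4 the least at 0.19. The non-catalytic beta subunits Psmb1, Psmb2, Psmb3 and Psmb4 gave log2 changes of 0.24 to 0.57. Psmb3 was at 96.6, 95.6 and 97.5 CPM in Trim47-/- and 63.2, 67.1 and 64.7 CPM in wild type (adjusted p = 3.97e-07), the largest change among core and cap genes. In the ATPase ring of the cap, log2 changes ran from 0.28 (Psmc1) to 0.45 (Psmc4). Psmc6 was at 123, 117 and 126 CPM in Trim47-/- and 99.2, 97.8 and 98.5 CPM in wild type (log2 change 0.31, adjusted p = 4.84e-06).

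The other cap subunits include the ubiquitin receptor Psmd4, the deubiquitinase Psmd14 and the scaffolds Psmd1 and Psmd2, and all 11 rose after 5-FU. Psmd6, a subunit of the lid, had 93.2, 91.9 and 90.4 CPM in Trim47-/- against 65.7, 65.5 and 64.7 CPM in wild type (log2 change 0.49, adjusted p = 9.16e-07). Psmd12 followed at 0.47, and Psmd2 was lowest at 0.22. Psmd14 gave 0.34 and Psmd4 0.29. The lid and base genes thus moved by amounts within the range of the core genes.

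**Figure D2:**
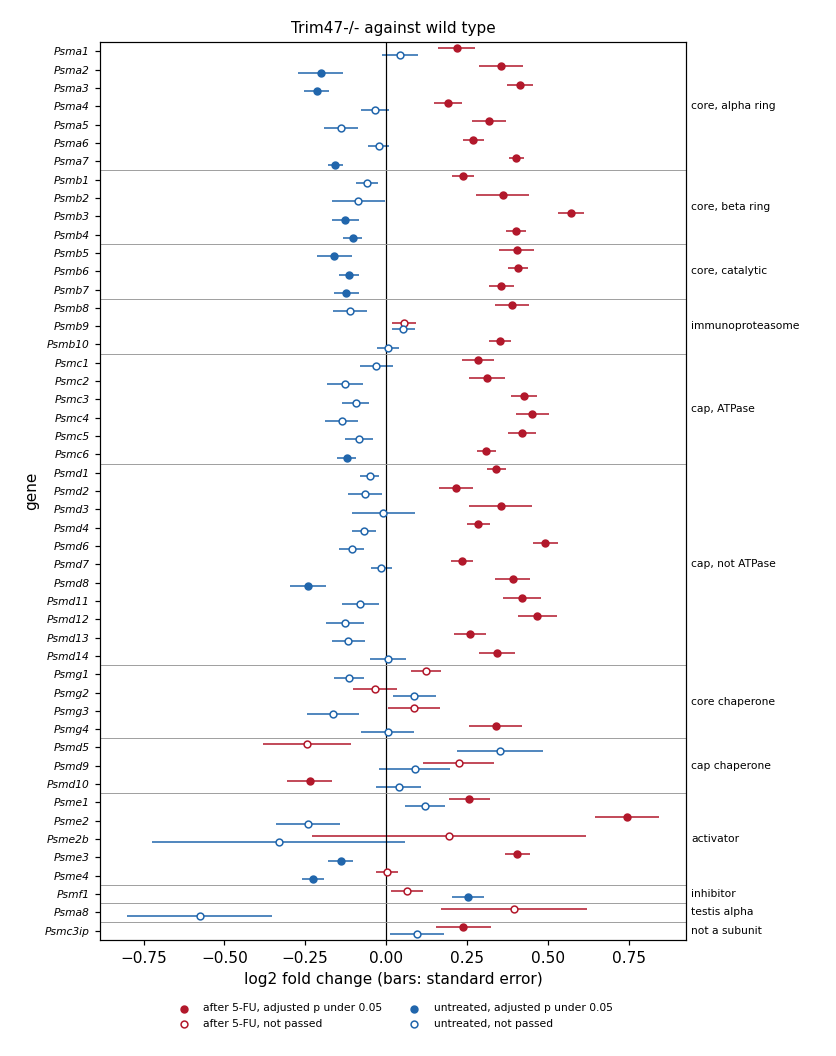
Points give the log2 fold change of Trim47-/- against wild type for each tested gene, after 5-FU in red and untreated in blue, with bars for the standard error; filled points have an adjusted p under 0.05. The red points of core and cap genes lie between 0.19 and 0.57, while their blue points lie between -0.24 and 0.04.

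Without the drug the genotype difference ran the other way and was smaller. Of the 49 tested genes 12 fell and 1, the PI31 gene Psmf1, rose in Trim47-/-, against 15.4% of all genes lower and 17.6% higher. Among core and cap subunits 10 of 31 fell and none rose, with a median log2 change of -0.10 (all genes 0.028), and 29 of 31 had a negative sign. In 16 of the 31, all 3 Trim47-/- libraries lay below all 3 wild type libraries, against 21.6% of all genes, and in none of the 31 above them, against 26.3%. None of the 49 genes reached 1.5-fold, against 8.41% of all genes. Psmd8, a lid subunit, had 110, 112 and 122 CPM in Trim47-/- against 139, 126 and 142 CPM in wild type (log2 change -0.24, adjusted p = 0.00553). Psma7 was at 114, 115 and 112 CPM in Trim47-/- and 128, 127 and 124 CPM in wild type (-0.16, adjusted p = 0.000523).
Psma3 (-0.22), Psma2 (-0.20), Psmb5 (-0.16), Psmb3 (-0.13), Psmb7 (-0.12), Psmc6 (-0.12), Psmb6 (-0.11) and Psmb4 (-0.10) also fell. Several of these calls were near the threshold and changed when 1 library was left out. Without wild type untreated replicate 2, Trim47-/- untreated replicate 2 or Trim47-/- untreated replicate 3 the count among core and cap genes was 5 of 31. Without wild type 5-FU replicate 3 it was 13. It was 6 with library totals alone and 6 with no filter on low counts. In the same comparison 4 of 9 LT-HSC markers rose and none fell, 1 of 7 monocyte markers rose and 4 fell (457 to 483 CPM in Trim47-/- and 620 to 627 CPM in wild type), and 6 of 7 neutrophil markers rose and 1 fell. Of 5 erythroid markers 4 rose and none fell, and of 5 megakaryocyte markers none rose and 4 fell (65.7 to 70.9 CPM in Trim47-/- and 90.7 to 94.0 CPM in wild type). Of the dendritic-cell list 1 rose and 1 fell, of the B-cell list 1 fell, of the T and NK list none passed, and of the endothelial and stromal list 2 rose and 1 fell. Their part was not tested.

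The 5-FU response was asked in each genotype, in libraries that share no sample between the genotypes but were fitted in 1 model. The Trim47-/- 5-FU libraries also enter the genotype comparison after 5-FU and the interaction. Results of these 3 comparisons are therefore not independent. In Trim47-/-, 40 of 49 tested genes rose and 1, Psmd5, fell between 5-FU and untreated libraries, against 29.6% of all genes higher and 30.8% lower. All 31 core and cap subunits rose, with log2 changes of 0.29 to 0.81 and a median of 0.46 (all genes -0.005). In all 31 the 5-FU libraries lay above the untreated ones, against 32.8% of all genes (33.8% below), and 7 of the 49 genes changed by at least 1.5-fold, against 26.2%. Of these 31, Psmb5 had the largest change, Psmb3 followed at 0.70, and Psmd6 at 0.67 was the largest of the cap. All 7 monocyte and all 7 neutrophil markers rose there too, as did 4 of 5 erythroid, 4 of 5 megakaryocyte and 2 of 3 T and NK markers, with none lower. Of 9 LT-HSC markers 2 rose and 7 fell, of 7 dendritic-cell markers 1 rose and 5 fell, of 5 B-cell markers 4 fell, and of 5 endothelial and stromal markers 1 rose and 2 fell. The part of these lists in the result was not tested. In wild type the response was mixed: 10 of 49 genes rose and 6 fell, against 25.2% and 25.4% of all genes. There 7 core and cap genes rose and 5 fell, with a median of 0.03. All 3 5-FU libraries lay above the untreated ones in 11 of the 31 and below in 5, against 29.7% and 29.2% of all genes, and none of the 49 reached 1.5-fold, against 18.8%. Markers moved in wild type as well: 6 of 7 neutrophil and 5 of 5 erythroid markers rose with none lower, 4 of 5 megakaryocyte markers rose and 1 fell, and 2 of 3 T and NK markers rose and 1 fell. Of 7 dendritic-cell markers 6 fell and none rose, of 5 B-cell markers 1 rose and 4 fell, of 7 monocyte markers 3 rose and 3 fell, of 9 LT-HSC markers 2 rose and 2 fell, and of 5 endothelial and stromal markers 1 rose and 1 fell. Their part was not tested.
Psmb5 and Psmd13 rose by 0.25, the largest among core and cap genes in wild type. The lid subunit Psmd12 had 55.4, 57.3 and 60.4 CPM after 5-FU against 69.8, 72.8 and 71.2 CPM untreated in wild type (log2 change -0.30, adjusted p = 0.00118), the largest fall of the core and cap. The wild type split depended on the scaling: with library totals alone 24 genes rose and 2 fell (18 and 1 among core and cap subunits), where 35.3% of all genes rose and 19.4% fell and the median of all genes stood at 0.115 in place of 0.012.

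**Figure D3:**
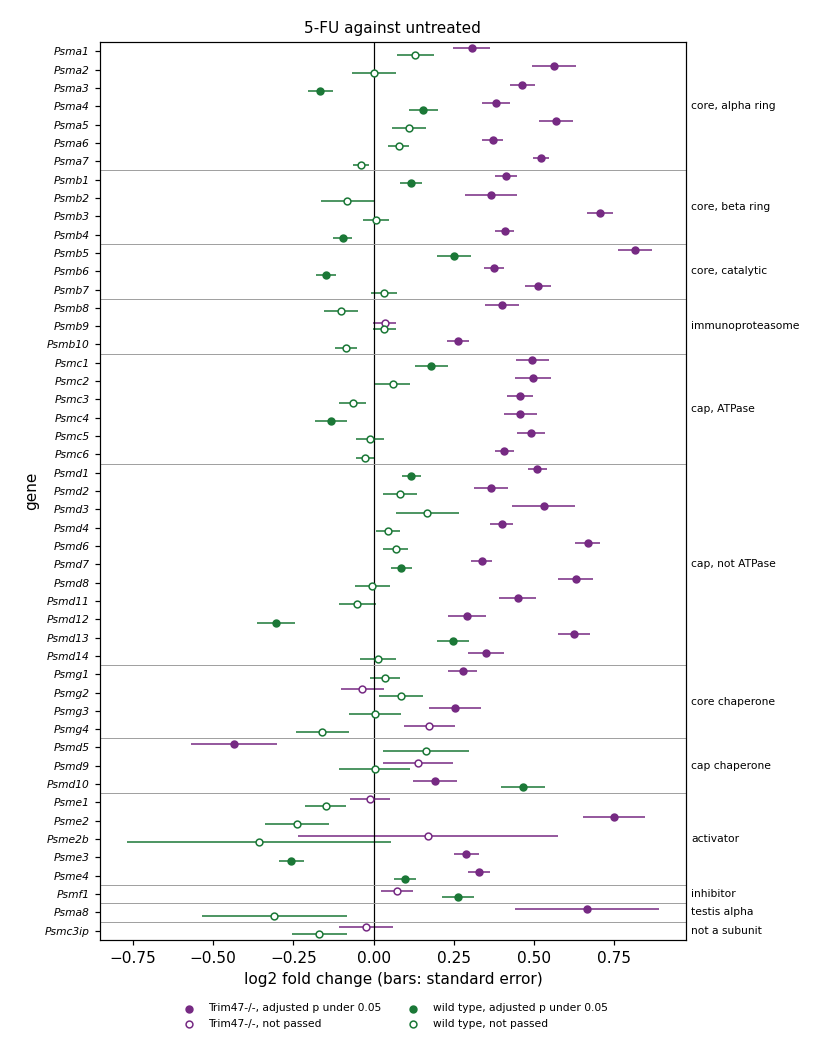
Points give the log2 fold change of 5-FU against untreated libraries for each tested gene, in Trim47-/- (purple) and in wild type (green), with bars for the standard error; filled points have an adjusted p under 0.05. Purple points of core and cap genes lie between 0.29 and 0.81, and green points lie on both sides of 0.

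Whether the drug response differed between genotypes was tested by the interaction, the log2 change with 5-FU in Trim47-/- minus that in wild type. It passed as positive in 38 of 49 genes and as negative in 3, against 26.4% and 28.5% of all genes. Among core and cap subunits 30 of 31 passed as positive, with a median of 0.46 (all genes -0.026). Of the 49 genes 9 passed with at least 1.5-fold, against 30.5% of all genes. Psma1 did not pass, at 0.17 with an adjusted p of 0.0854. Psmb3 (0.70), Psma3 (0.63), Psmd8 (0.63) and Psmd6 (0.60) were the largest among core and cap subunits, and over all members Psme2 (0.99) and Psma8 (0.97) were above them.
The marker lists differed in the same contrast, with all 7 monocyte markers and 6 of 7 neutrophil markers passing as positive and 8 of 9 LT-HSC, 5 of 5 erythroid and 4 of 5 B-cell markers as negative. Of 5 megakaryocyte markers 3 passed as positive and 1 as negative, of 7 dendritic-cell markers 2 and 1, and 1 each of the T and NK and of the endothelial and stromal lists as negative. Whether they bear on the proteasome genes was not tested.

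Of the catalytic subunits, all 3 constitutive genes and 2 of the 3 immunoproteasome genes, Psmb8 and Psmb10, rose in Trim47-/- after 5-FU, while Psmb9 did not pass. Psmb5, the chymotrypsin-like site, had 88.6, 92.4 and 97.8 CPM in Trim47-/- 5-FU, 67.5, 74.9 and 68.5 CPM in wild type 5-FU, 54.4, 53.2 and 51.1 CPM in Trim47-/- untreated and 56.1, 59.3 and 61.9 CPM in wild type untreated libraries. Its groups did not overlap in any of the 4 comparisons, and 5-FU raised it by 0.81 (SE 0.05, adjusted p = 1.43e-07) in Trim47-/- and 0.25 (SE 0.05, adjusted p = 0.00237) in wild type, on the log2 scale. Psmb6, the caspase-like site, was at 127, 125 and 125 CPM in Trim47-/- 5-FU, 94.5, 98.0 and 91.5 CPM in wild type 5-FU, 99.3, 95.9 and 95.8 CPM in Trim47-/- untreated and 107, 105 and 103 CPM in wild type untreated libraries. It rose by 0.41 with genotype after 5-FU (adjusted p = 6.86e-07) and fell by 0.15 with 5-FU in wild type (adjusted p = 0.00192), a call lost with library totals alone (adjusted p = 0.233). Psmb7, the trypsin-like site, was at 153, 145 and 150 CPM in Trim47-/- 5-FU, 121, 116 and 113 CPM in wild type 5-FU, 109, 99.7 and 106 CPM in Trim47-/- untreated and 111, 114 and 118 CPM in wild type untreated libraries. Its genotype change after 5-FU was 0.36 (adjusted p = 1.55e-05). The untreated genotype calls of the 3 genes were near the threshold (edgeR adjusted p = 0.0409 for Psmb5, 0.015 for Psmb6 and 0.0344 for Psmb7). Each was lost when any 1 of several libraries was left out, while the log2 changes stayed negative. Psmb5 lost its call without wild type untreated replicate 2 or 3, any 1 Trim47-/- untreated library or Trim47-/- 5-FU replicate 2 (adjusted p = 0.0558 to 0.145). Psmb6 lost it without wild type untreated replicate 1 or Trim47-/- untreated replicate 2 or 3 (0.0539 to 0.0567), and Psmb7 without wild type untreated replicate 2 or 3, Trim47-/- untreated replicate 2 or 3 or wild type 5-FU replicate 2 (0.052 to 0.147). Psmb5 and Psmb7 also lost it with library totals alone (adjusted p = 0.066 and 0.073) and with no filter on low counts (0.0958 and 0.0847).

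The immunoproteasome genes Psmb8 (chr17:34197721-34201454, + strand) and Psmb9 (chr17:34181987-34187764, - strand) lie in the major histocompatibility complex, and Psmb10 (chr8:105935735-105938444, - strand) lies apart. Psmb8 had 183, 204 and 195 CPM in Trim47-/- 5-FU, 148, 150 and 147 CPM in wild type 5-FU, 143, 158 and 140 CPM in Trim47-/- untreated and 155, 168 and 153 CPM in wild type untreated libraries. All 3 Trim47-/- 5-FU libraries were thus the highest, with a genotype change of 0.39 (SE 0.05, adjusted p = 7.81e-05). Psmb10 was at 74.4, 76.4 and 76.3 CPM in Trim47-/- 5-FU, 58.6, 60.7 and 58.7 CPM in wild type 5-FU, 62.2, 65.0 and 62.2 CPM in Trim47-/- untreated and 64.8, 63.2 and 60.8 CPM in wild type untreated libraries. It too was highest in Trim47-/- after 5-FU (0.35, SE 0.03, adjusted p = 6.01e-06). The Psmb10 change with 5-FU in wild type (-0.09, adjusted p = 0.0622) passed with DESeq2 size factors (0.0411) or without wild type untreated replicate 3 (0.0301). Psmb8 did not pass with genotype without the drug (adjusted p = 0.13) or with 5-FU in wild type (0.138). With a replicate block it passed as lower in both (0.0363 and 0.041). Without Trim47-/- untreated replicate 2 it passed in the former (0.0345).
Psmb9 had 73.7, 72.9 and 73.6 CPM in Trim47-/- 5-FU, 74.1, 67.7 and 70.1 CPM in wild type 5-FU, 73.1, 70.9 and 71.1 CPM in Trim47-/- untreated and 69.6, 70.1 and 67.5 CPM in wild type untreated libraries. The 12 libraries thus covered a narrow band. Its log2 changes were 0.06 with genotype after 5-FU (SE 0.04, adjusted p = 0.218), 0.05 without the drug (adjusted p = 0.285), 0.03 with 5-FU in Trim47-/- (adjusted p = 0.429) and 0.03 in wild type (adjusted p = 0.482), and the interaction was 0.00 (SE 0.05, adjusted p = 0.984). Without wild type 5-FU replicate 1 the genotype change after 5-FU passed (adjusted p = 0.0471), and with library totals alone the wild type 5-FU change did (adjusted p = 0.00699). The Psmb9 gene overlaps Tap1 on the other strand, and without a known strand setting of the counting, reads of the pair may not be told apart. The same limit holds for other members. Of the 50 genes, 12 overlap an exon of another gene on the other strand, Psmb7, Psmb8 and Psme1 among them. On the same strand 4 do, Psmb5 among them. Tap1, a subunit of the peptide transporter that feeds major histocompatibility class I, was at 164 CPM in Trim47-/- and 152 CPM in wild type after 5-FU.

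**Figure D4:**
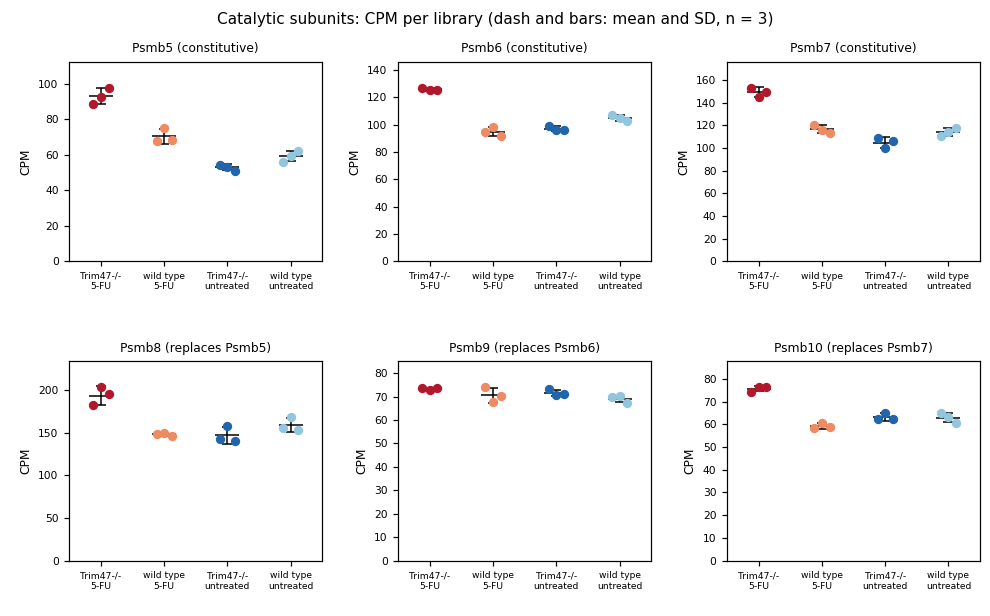
Each panel gives the CPM of 1 catalytic subunit in the 12 libraries (points), with the mean and SD of each group of 3 (dash and bars), the constitutive subunits above the immunoproteasome subunits that replace them. Psmb9 stays between 67.5 and 74.1 CPM, while the other genes are highest in Trim47-/- 5-FU libraries.

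The log2 ratio of each immunoproteasome gene to the subunit it replaces was taken within each library, from CPM plus 0.5. Psmb9 over Psmb6 averaged -0.77 ± 0.01 in Trim47-/- and -0.42 ± 0.10 in wild type after 5-FU, and -0.43 ± 0.01 in Trim47-/- and -0.60 ± 0.02 in wild type without the drug (SD, n = 3 each). The groups did not overlap in any of the 4 comparisons, and the sign of the genotype difference was opposite with and without 5-FU (-0.35 and 0.17). Psmb9 itself passed in neither genotype comparison, while Psmb6 changed by 0.41 after 5-FU and by -0.11 without the drug. This ratio thus largely restates the Psmb6 changes with the sign turned. Psmb8 over Psmb5 averaged 1.06 ± 0.07 in Trim47-/- and 1.07 ± 0.07 in wild type after 5-FU, and 1.47 ± 0.09 in Trim47-/- and 1.42 ± 0.11 in wild type without the drug. It was lower after 5-FU in both genotypes, by 0.41 in Trim47-/- and 0.35 in wild type, with no overlap, and did not separate the genotypes. Psmb10 over Psmb7 averaged -0.98 ± 0.06 in Trim47-/- and -0.97 ± 0.06 in wild type after 5-FU, and -0.73 ± 0.10 in Trim47-/- and -0.85 ± 0.09 in wild type without the drug. In an exact two-sided permutation test over libraries, 3 against 3 cannot give a p under 0.1, and the 12 tests reached adjusted values of 0.171 at the lowest, so none passed.

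Compared per length, the share of Psmb8 in the sum of Psmb8 and Psmb5 depended on the length used. With CPM per kilobase of the principal transcript it was 53.5% in Trim47-/- and 53.8% in wild type after 5-FU, and 60.5% in Trim47-/- and 59.8% in wild type without the drug. From the deposited FPKM the same shares were 37.4%, 37.6%, 44.2% and 43.5%, so the order of the 2 subunits turned round. In 48 of the 50 genes the FPKM length equalled the summed length of all distinct annotated exons, which lengthens genes with many transcripts. Psmb9 made up 25.6% of Psmb9 plus Psmb6 in Trim47-/- and 30.6% in wild type after 5-FU by principal transcript, and Psmb10 30.97% of Psmb10 plus Psmb7 in Trim47-/- and 31.04% in wild type.

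Among the activators Psme2 and Psme3 rose most in Trim47-/- after 5-FU, Psme1 less, and Psme4 did not pass. Psme2, the beta subunit of PA28, had 36.6, 30.0 and 32.5 CPM in Trim47-/- 5-FU, 17.6, 19.6 and 21.9 CPM in wild type 5-FU, 18.2, 21.1 and 19.6 CPM in Trim47-/- untreated and 24.0, 21.3 and 24.3 CPM in wild type untreated libraries. It had the largest genotype change of all members that passed after 5-FU (log2 0.75, SE 0.10, adjusted p = 5.99e-05), the only 1 above 1.5-fold, and the interaction was 0.99 (adjusted p = 9.93e-05). Psme1, its alpha partner, had 142, 140 and 153 CPM in Trim47-/- 5-FU, 127, 119 and 118 CPM in wild type 5-FU, 155, 138 and 146 CPM in Trim47-/- untreated and 147, 124 and 134 CPM in wild type untreated libraries. Psme1 rose with genotype after 5-FU by 0.26 (adjusted p = 0.00455), while its 5-FU change in Trim47-/- was -0.01 (adjusted p = 0.884) and its interaction 0.14 (adjusted p = 0.21).
The difference between the partners was not tested. With the counts of Psme2b and of the other annotated copies added to their parent genes, the number of genotype calls after 5-FU was again 39.

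Psme3, the nuclear PA28 gamma, had 205, 231 and 215 CPM in Trim47-/- 5-FU, 169, 163 and 160 CPM in wild type 5-FU, 176, 181 and 177 CPM in Trim47-/- untreated and 197, 191 and 199 CPM in wild type untreated libraries. It rose with genotype after 5-FU (0.41, adjusted p = 4.82e-06) and with 5-FU in Trim47-/- (0.29, adjusted p = 5.52e-05), and fell with 5-FU in wild type (-0.26, adjusted p = 0.0002), so the drug responses had opposite signs. Psme4, the PA200 activator linked to histone degradation, was at 88.1, 91.7 and 87.6 CPM in Trim47-/- 5-FU, 86.9, 91.5 and 88.6 CPM in wild type 5-FU, 71.6, 73.1 and 68.4 CPM in Trim47-/- untreated and 83.4, 84.4 and 81.6 CPM in wild type untreated libraries. Its genotype groups overlapped after 5-FU (0.00, SE 0.03, adjusted p = 0.959) and were apart without the drug (-0.23, adjusted p = 0.000476). The wild type 5-FU rise of Psme4 (0.10, adjusted p = 0.0348) was lost without wild type untreated replicate 1 or 3 or wild type 5-FU replicate 2 or 3 (adjusted p = 0.066 to 0.105).
Psmf1, the PI31 gene, had 36.4, 39.6 and 40.0 CPM in Trim47-/- 5-FU, 36.0, 35.9 and 39.0 CPM in wild type 5-FU, 37.0, 36.0 and 37.3 CPM in Trim47-/- untreated and 30.98, 30.35 and 31.24 CPM in wild type untreated libraries. The wild type untreated group alone stood low, which gave a rise with genotype without the drug (0.25, adjusted p = 0.00242) and with 5-FU in wild type (0.26, adjusted p = 0.00106). Its interaction of -0.19 (adjusted p = 0.0392) was lost without any 1 wild type untreated library, Trim47-/- untreated replicate 1 or 3, wild type 5-FU replicate 3 or Trim47-/- 5-FU replicate 1 (adjusted p = 0.0573 to 0.104).

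**Figure D5:**
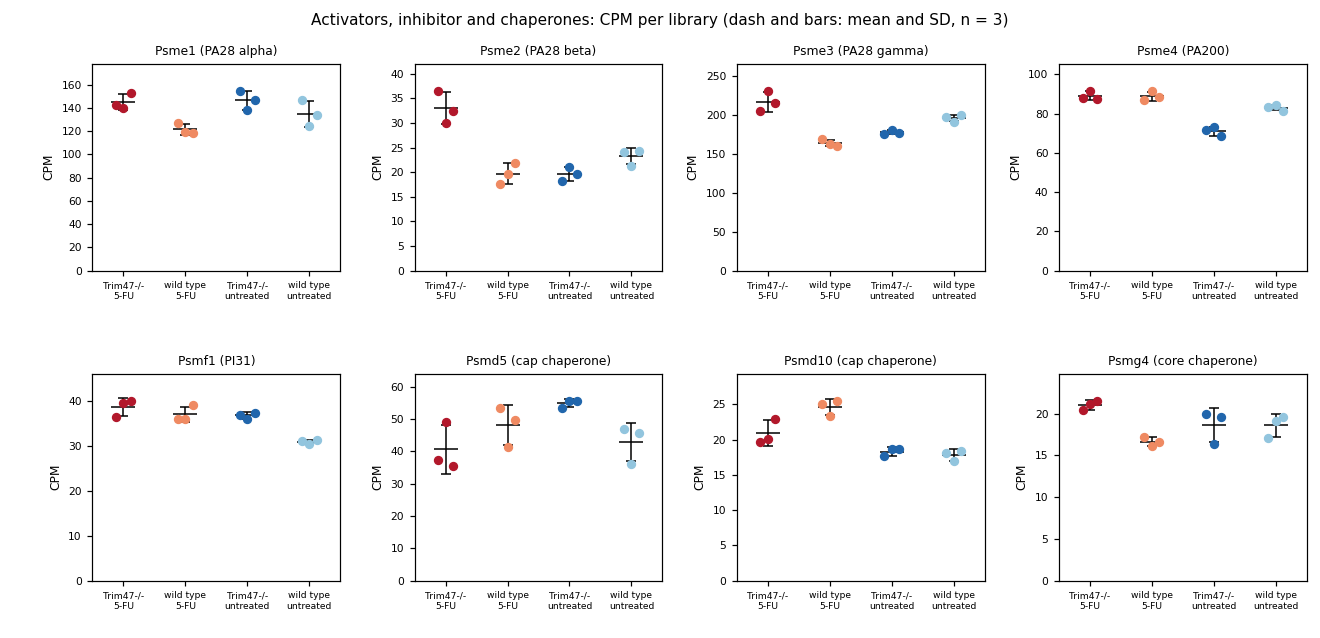
Each panel gives the CPM of 1 activator, the inhibitor or an assembly chaperone in the 12 libraries (points), with the mean and SD of each group of 3 (dash and bars). Psme2 stands at 30.0 to 36.6 CPM in Trim47-/- 5-FU libraries and at 17.6 to 24.3 CPM in all others, while Psmd10 is highest in wild type 5-FU libraries.

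The assembly chaperones help build the core and cap and leave the finished particle. Of the 7, after 5-FU, Psmg4 rose with genotype, Psmd10 fell and 5 did not pass. Over all genes tested 27.2% were higher and 27.6% lower, so these counts do not stand above the shares of all genes. Psmd10 (gankyrin), a chaperone of the cap base, had 19.65, 20.06 and 22.99 CPM in Trim47-/- 5-FU, 25.0, 23.3 and 25.5 CPM in wild type 5-FU, 17.7, 18.6 and 18.7 CPM in Trim47-/- untreated and 18.1, 16.9 and 18.5 CPM in wild type untreated libraries. It rose with 5-FU in wild type by 0.47 (adjusted p = 0.000181) and in Trim47-/- by 0.19 (adjusted p = 0.0329), and was lower in Trim47-/- than in wild type after 5-FU (-0.24, adjusted p = 0.013). That genotype call was lost without Trim47-/- 5-FU replicate 1 or 2 (adjusted p = 0.0594 and 0.0542), and the call for 5-FU in Trim47-/- without any 1 Trim47-/- untreated library or Trim47-/- 5-FU replicate 3 (0.053 to 0.171).
Psmd5, another base chaperone, had 37.2, 49.2 and 35.4 CPM in Trim47-/- 5-FU, 53.4, 41.2 and 49.6 CPM in wild type 5-FU, 53.4, 55.6 and 55.5 CPM in Trim47-/- untreated and 46.9, 36.2 and 45.7 CPM in wild type untreated libraries. Its libraries spread widely within groups, and its fall with 5-FU in Trim47-/- (-0.43, adjusted p = 0.015) was lost without Trim47-/- 5-FU replicate 1 or 3 (adjusted p = 0.0598 and 0.0654). The genotype change after 5-FU (-0.24, adjusted p = 0.15) passed without Trim47-/- 5-FU replicate 2 (0.0192).
Psmd9 passed in no comparison, with log2 changes between 0.00 and 0.22. Of the core chaperones Psmg1, Psmg2, Psmg3 and Psmg4, only Psmg4 rose with genotype after 5-FU (20.4, 21.2 and 21.5 CPM in Trim47-/- against 17.2, 16.1 and 16.6 CPM in wild type; log2 0.34, adjusted p = 0.00441). Psmg2 passed nowhere, with log2 changes between -0.12 and 0.09, the interaction included. Psmg1 passed with genotype after 5-FU only without Trim47-/- 5-FU replicate 2 (adjusted p = 0.0231). Psmg1 (0.28, adjusted p = 0.000288) and Psmg3 (0.25, adjusted p = 0.0172) rose with 5-FU in Trim47-/-.

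Of the remaining members, Psma8, the alpha subunit known from testis, was at 1.76 to 3.73 CPM over the 12 libraries, and its rise with 5-FU in Trim47-/- (0.66, adjusted p = 0.0235) was lost without Trim47-/- untreated replicate 1 or 3 or Trim47-/- 5-FU replicate 1 or 2 (adjusted p = 0.0649 to 0.0976). Psmb11, the thymic subunit, had 2 counts in 1 Trim47-/- 5-FU library, 2 in 1 wild type untreated library and 0 in the other 10, and was not tested. Psme2b stood at 0.633 to 2.03 CPM and passed in no comparison. Psmc3ip had 12.4, 12.7 and 13.3 CPM in Trim47-/- against 10.4, 10.6 and 11.6 CPM in wild type after 5-FU, and its rise (0.24, adjusted p = 0.0349) was lost without wild type 5-FU replicate 1 or 2 or Trim47-/- 5-FU replicate 2 or 3 (0.0618 to 0.105).

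Levels per length differed more between subunits than between groups. In CPM per kilobase of the principal transcript, the 31 core and cap subunits had a median of 76.4 in Trim47-/- 5-FU, 63.0 in wild type 5-FU, 58.7 in Trim47-/- untreated and 59.4 in wild type untreated libraries. Psmb4, a structural beta subunit, was highest in every group (191, 145, 144 and 155 in that order of groups) and Psma3 lowest (23.4, 17.5, 17.0 and 19.7). By deposited FPKM Psmb4 was again highest, but Psmd11 was lowest. Replicates were close, with a median coefficient of variation of 2.88% to 4.04% over the 31 genes, and the spread exceeded counting noise: the median chi-square per degree of freedom was 1.31 to 1.70 over the 49 genes, where counting alone gives 0.693.

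Genes that work with the proteasome but fall outside the name rule were read from lists, whose counts stand against 27.2% of all genes higher and 27.6% lower in Trim47-/- after 5-FU, and 17.6% and 15.4% without the drug. Of 12 proteasome partners, 7 rose and 2 fell in Trim47-/- after 5-FU (median log2 change 0.32), and none rose and 5 fell without the drug. Zfand2a, a stress-induced proteasome adaptor, was at 141 CPM in Trim47-/- and 81.1 CPM in wild type after 5-FU (log2 0.80), and Usp14, a deubiquitinase on the cap, at 93.1 CPM in Trim47-/- and 73.3 CPM in wild type (0.34). Sem1, the smallest cap subunit, which the name rule misses, rose as well (98.8 CPM in Trim47-/- against 79.2 CPM in wild type, 0.32), as did Txnl1 (0.38). Pomp, the maturation factor of the core, gave 66.9 CPM in Trim47-/- against 51.6 CPM in wild type (0.38), while Zfand5 fell (175 against 246 CPM, -0.49).

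Of 8 genes of the NRF1 pathway, 4 rose and none fell in Trim47-/- after 5-FU (median 0.17), beside 27.2% and 27.6% of all genes. These were Vcp, the segregase that extracts NRF1 from the membrane (0.26), its cofactor Nploc4 (0.33), the protease Ddi2 that cleaves NRF1 (0.26), and the ligase Syvn1 (0.46). The NRF1 gene itself, Nfe2l1, was at 43.1 CPM in Trim47-/- and 64.2 CPM in wild type after 5-FU and did not pass (-0.57, adjusted p = 0.494), with an SD of 5.84 CPM in Trim47-/- and 46.9 CPM in wild type. Of 12 ubiquitin and shuttle genes 7 rose and 1 fell after 5-FU, among them the shuttle factor Rad23b (344 CPM in Trim47-/- against 264 CPM in wild type, 0.38) and the ubiquitin-activating enzyme Uba6 (0.40), while Ubqln2 fell (-0.25). Without the drug 6 of these 12 rose and 3 fell (median 0.097), unlike the core and cap genes. The NRF1 list then had 2 higher and 1 lower, against 17.6% and 15.4% of all genes. The interaction passed as positive in 4 and negative in 4 of the ubiquitin and shuttle genes, against 26.4% and 28.5% of all genes. In the NRF1 list it was 4 and 1.

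Of 12 antigen-processing genes 6 rose and none fell with genotype after 5-FU (median 0.145), led by the chaperones Calr (1999 CPM in Trim47-/- against 1339 CPM in wild type, 0.58), Pdia3 (0.49) and Canx (0.28). The class I gene H2-D1 was also among the 6 that rose. H2-K1 did not pass (0.01, adjusted p = 0.653), and B2m did not (0.13, adjusted p = 0.15). Without the drug 1 of the 12 antigen-processing genes rose and 3 fell, against 17.6% and 15.4% of all genes. Of 12 interferon-signalling genes 2 rose and 4 fell, counts near the shares of all genes (27.2% higher and 27.6% lower). Irf8 (108 CPM in Trim47-/- against 54.0 CPM in wild type, 0.999) and Ifngr2 (0.44) were higher, and Irf2 (40.6 against 75.0 CPM, -0.89), Jak1 (-0.32) and Jak2 (-0.22) were among the lower ones. Irf1, a known driver of immunoproteasome genes, was at 106 CPM in Trim47-/- and 102 CPM in wild type after 5-FU (0.06, adjusted p = 0.28), against 197 CPM in Trim47-/- and 178 CPM in wild type without the drug. It fell with 5-FU in both genotypes, by 0.89 in Trim47-/- and 0.81 in wild type. Of the 12 interferon-signalling genes 4 rose and 2 fell in Trim47-/- without the drug, against 17.6% and 15.4% of all genes.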

How the data were processed

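Total RNA from 12 mouse libraries, 3 in each of 4 groups, was sequenced as poly-A selected, stranded, paired-end RNA-seq, per the labels' protocols. Per the submitters' processing notes, CASAVA 1.8, HISAT2, StringTie and edgeR were used with the GRCm38 build, with no role stated for each. How reads were counted, whether by strand and on which annotation, is not given in the sources used here. The deposited table holds whole-number read counts per gene, not normalized, and FPKM values made by the authors, per the file headers. All 50 gene positions matched GENCODE M21.

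Counts were scaled by TMM and filtered with filterByExpr, which left 16319 of 28999 genes, and 1 model with a term per group was fitted over the 12 libraries with edgeR 4.0.16 in R 4.3.3 (quasi-likelihood test, Benjamini-Hochberg adjustment over all genes tested, threshold 0.05). CPM use the TMM-scaled totals. The 12 ratio tests were exact two-sided permutation tests that listed every split of the libraries, computed with numpy 2.4.6. Total counts per library, 13919649 to 20703198, set the counting precision. The fit was also run on simulated counts, whose outcome is not reported here.

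Alternatives were DESeq2 size factors, library totals, the DESeq2 1.42.0 Wald test, no filter, a replicate block, an adjusted p under 0.01, a 1.5-fold minimum, only the 6 libraries compared, each library left out and a pseudocount of 5 CPM in place of 0.5 CPM; adding copies to parent genes and the choice of length were added after the data were seen. Values per library are given for the catalytic and immunoproteasome subunits, the activators and the inhibitor, and for the member of each role with the smallest p; related lists name up to 4 genes per comparison, and Pomp, Zfand5, Ubqln2, H2-K1, B2m, Jak2, Irf1, Nfe2l1 and Slamf1, where they fall outside that rule, were chosen after their values were seen. The members and all gene lists were chosen with earlier results of these data known. Psmb11 did not pass the filter.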

Additional observations from a re-analysis of the deposited data

Results flagged for a closer look

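For 24 genes whose values are described above, the response to 5-FU differed between Trim47-/- and wild type by the interaction test (edgeR quasi-likelihood, adjusted p under 0.05; log2 change in Trim47-/- minus that in wild type). Among core subunits the interaction was 0.63 for Psma3, 0.56 for Psma7, 0.3 for Psmb1, 0.7 for Psmb3 and 0.5 for Psmb4. The constitutive catalytic genes gave 0.56 for Psmb5, 0.52 for Psmb6 and 0.48 for Psmb7, and the immunoproteasome genes 0.5 for Psmb8 and 0.35 for Psmb10. Cap subunits gave 0.31 for Psmc1, 0.43 for Psmc6, 0.6 for Psmd6, 0.63 for Psmd8 and 0.59 for Psmd12.

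Among the activators and the inhibitor it was 0.99 for Psme2, 0.55 for Psme3, 0.23 for Psme4 and -0.19 for Psmf1. The chaperones gave -0.27 for Psmd10, -0.6 for Psmd5, 0.24 for Psmg1 and 0.33 for Psmg4, and the testis subunit Psma8 gave 0.97. Single libraries ended some of these calls. Psmd10 lost its call without wild type untreated replicate 1 or 2, Trim47-/- untreated replicate 2 or 3, wild type 5-FU replicate 1 or 3 or Trim47-/- 5-FU replicate 1 or 2 (adjusted p = 0.0512 to 0.0814). Psmg4 lost it without wild type untreated replicate 2 or 3, Trim47-/- untreated replicate 2, or replicate 2 or 3 of either 5-FU group (0.0507 to 0.0676). Psma8 lost it without wild type untreated replicate 3, Trim47-/- untreated replicate 3, wild type 5-FU replicate 1 or Trim47-/- 5-FU replicate 1 or 2 (0.0504 to 0.0614), and Psmf1 as given above. With library totals alone Psmg1 (log2 0.14, adjusted p = 0.123) and Psmg4 (adjusted p = 0.106) did not pass. With no filter on low counts Psmg1 (adjusted p = 0.0514), Psmg4 (0.0862) and Psma8 (0.055) did not, and by the DESeq2 test Psmd10 (0.0996) and Psmf1 (0.145) did not.

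The pseudogene Psma5-ps, which the name rule leaves out, had 31.3 ± 0.477 CPM in Trim47-/- and 23.4 ± 0.811 CPM in wild type after 5-FU (SD, n = 3; log2 0.42, edgeR adjusted p = 2.15e-05), and reads of Psma5 may be counted there.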

How the results depend on the processing

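The counts of called genes after 5-FU, in Trim47-/- with 5-FU and for the interaction stayed within 1.5 times their values (39, 41 and 41) under every alternative tried except the 1.5-fold minimum, which left 1, 7 and 9. That minimum left 0 of 13 genotype calls without the drug and 0 of 16 calls for 5-FU in wild type. With an adjusted p under 0.01 these were 6 and 9. With library totals alone, 26 genes passed for 5-FU in wild type (24 higher and 2 lower), and the log2 change there turned to 0.0636 for Psma7 (adjusted p = 0.0421) and 0.0057 for Psmb4 (adjusted p = 0.888); without the drug the genotype split was 2 higher and 8 lower, against 1 and 12. Leaving out 1 library gave 7 to 17 genotype calls without the drug (7 without Trim47-/- untreated replicate 3 and 8 without wild type untreated replicate 2), 38 to 40 after 5-FU, 11 to 16 for 5-FU in wild type, 38 to 41 in Trim47-/- and 37 to 40 for the interaction. With a pseudocount of 5 CPM the Psmb9 over Psmb6 difference between 5-FU and untreated Trim47-/- libraries was -0.33, against -0.34. Same-numbered libraries did not deviate together (r = -0.13 to 0.08), so numbers were not read as pairs, and a replicate block gave 13, 39, 16, 41 and 40 calls for genotype without the drug, genotype after 5-FU, 5-FU in wild type, 5-FU in Trim47-/- and the interaction. The causes of these shifts were not tested. Depth limits Psma8, Psme2b and Psmb11.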
